A study of Mus musculus with 16 samples.

Results

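The iHAC1-iPS clones are mouse cell lines obtained by moving a human artificial chromosome, iHAC1, into embryonic fibroblasts (MEFs) of C57BL/6 mice. A human artificial chromosome is a small extra chromosome that is copied alongside the host's own and does not insert into them. iHAC1 holds 2 copies each of Klf4, c-Myc, Sox2 and Oct4 as cDNAs, each driven by the CAG promoter between insulators, and it also carries EGFP, and all 4 clones were picked as EGFP-positive colonies. The clones compared here were chosen by their sample titles: 1-A3, 1-B, 1-C3 and 1-D6. Each grew from a separate colony of a single transfer experiment, in which mimics of the embryonic stem cell microRNAs miR-294 and miR-295 were given to every culture during reprogramming. They were set against both mouse embryonic stem (ES) cell lines of the series, B6ES from C57BL/6 mice and TT2 from C57BL/6 x CBA F1 mice. These 6 arrays are part of 16, with 1 array per line and 1 dye (Cy3) per array. The remaining arrays hold the parental MEFs, an iPS line made with retroviruses (20D17), 4 iPS clones made with a second vector (iHAC2, which adds 2 copies of Oct4 and a hairpin against p53), and 4 iPS lines that had lost their vector. ES lines and clones alike were kept on feeder layers of MEFs with LIF, so each RNA can hold some feeder RNA.

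A level below is the log2 of an array's background-subtracted signal for a probe, minus the 75th percentile of that array. Levels are always listed in the order 1-A3, 1-B, 1-C3 and 1-D6, then B6ES and TT2, and levels of different probes are not compared. A difference is the mean of the 4 clones minus the mean of the 2 ES lines, given with its SE from limma. A probe was called when its limma p-value, adjusted by the Benjamini-Hochberg method over all probes tested, was below 0.05 and its difference was at least 2-fold. Where a probe was not well above background in any array of one group, the difference is bounded instead as "at least N-fold", with the dimmer group set on each array to the lowest signal that was well above background there, or to the probe's own signal where that was higher. Each clone is a line of its own, so the spread among clones is that between lines. In such bulk RNA, fewer cells expressing a gene and less of its RNA per cell cannot be told apart. The arrays of 1-A3, 1-B and 1-C3 shared a slide with the MEFs, and the array of 1-D6 shared a slide with 20D17 and both ES lines. The difference within a slide is therefore that of 1-D6 from the ES mean, and the calls that change when slide is a term in the fit are given for the main lists and, by gene, near the end.

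Mouse ES cells keep a self-renewing state through a network of transcription factors, among them Oct4 (Pou5f1), Sox2, Nanog, Esrrb and Klf4, supported by LIF and BMP signalling. When fibroblasts are reprogrammed they pass from a mesenchymal to an epithelial state, in which E-cadherin junctions hold cells in compact colonies, and later switch on the endogenous network and a set of germline genes that ES cells also transcribe. The lists of genes used here follow those steps, and then signalling, chromatin and metabolism.

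Markers of the labelled cell types were examined first. Of 9 markers of pluripotent cells, 9 were well above background in 1-B, 1-C3 and both ES lines. Esrrb and Zfp42 were not in 1-A3 and 1-D6, nor was Cdh1 in 1-A3. The summed linear level of the 9 was 109 to 114 in the clones, 446 to 587 in the ES lines and, over the 8 with a value, 1.23 in the MEFs. Pou5f1 made up most of the sum in the clones, and its probe can read RNA of the vector, as described below. Without it the sum was 4.31 to 26.0 in the clones and 430 to 575 in the ES lines. In the ES lines Dppa5a alone made up most of that sum, so it does not weigh the markers evenly. The clones are called by their label below, including those in which these markers were not above background. Of 13 fibroblast markers, 13 were well above background in every clone and in TT2 and 12 in B6ES, where Fap was not. Their sum was 261 to 703 in the clones, 92.3 and 229 in B6ES and TT2, and 581 in the MEFs. In other iPS lines it was 444 for 20D17, 124 to 356 for the iHAC2-iPS clones and 209 to 365 for the vector-free lines. The ranges of clones and ES lines did not overlap for either list.

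Of 31423 probes tested, 2254 (7.17%) were called higher in the clones and 2240 (7.13%) lower. At 1 probe per gene, 1504 of 21189 genes (7.1%) were called higher and 1607 (7.58%) lower. These percentages are the background for every count of called list members below. An unadjusted limma p below 0.05 was held by 7363 of the 21189 genes, the background for counts at that threshold. The median difference over all genes was 0.05. The called changes of largest size lay mostly on the lower side: 482 genes were lower by at least 8-fold and 163 were higher by that much. Clones of the group were not alike. The root mean square difference over probes was 0.64 between 1-B and 1-C3 and 0.72 between 1-A3 and 1-D6, and 0.76 to 0.93 in the other pairs of clones. Between a clone and an ES line it was 1.01 to 1.49, lowest for 1-C3 with TT2 and highest for 1-A3 with B6ES, and between the ES lines it was 0.65. With slide as a term in the fit, which leaves 1-D6 against the ES lines, 2441 probes were called, 1016 higher and 1425 lower.

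**Figure D1:**
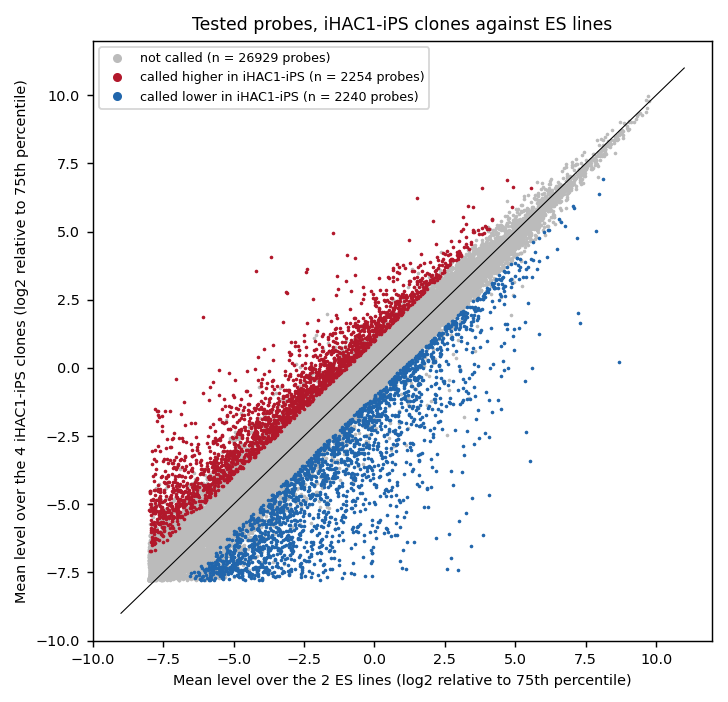
Mean level over the 4 iHAC1-iPS clones against the mean level over the 2 ES lines, both as log2 relative to the array's 75th percentile, with 1 point per tested probe and the line of equality in black. The 2254 probes called higher lie above the line and the 2240 called lower lie below it, and the lower ones reach farther from it.

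**Figure D2:**
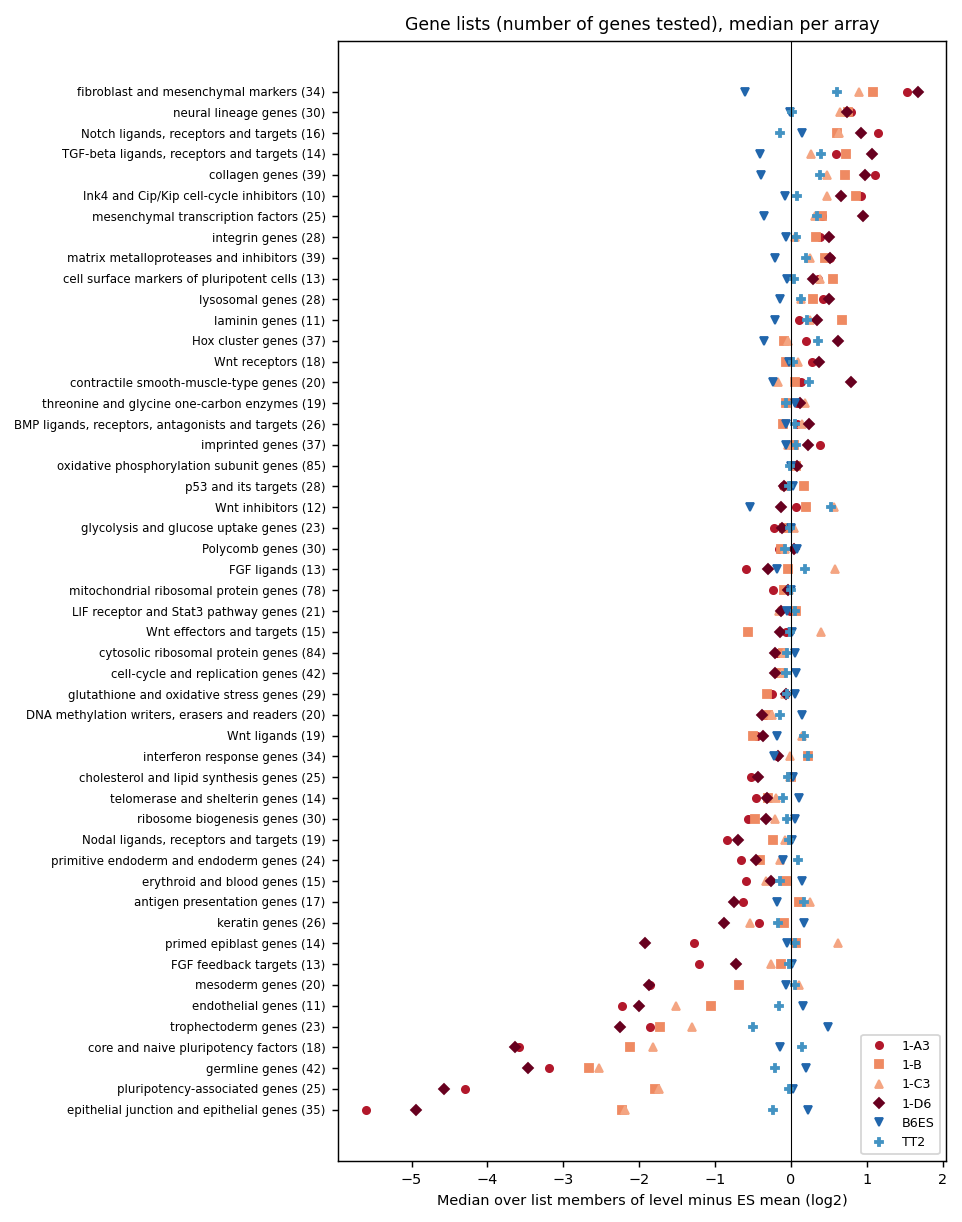
Median over the tested genes of each list of the level minus the mean level of the ES lines (log2), for each of the 4 clones and both ES lines, for the lists with at least 10 genes tested. The epithelial, pluripotency-associated, germline and core pluripotency lists lie lowest, and 1-A3 and 1-D6 lie below 1-B and 1-C3 in each of these 4 lists.

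The first genes to consider are the factors on the vector. Pou5f1, which encodes Oct4, had levels of 6.71, 6.63, 6.38 and 6.74 in the clones and 3.58 and 4.05 in the ES lines. All clones were above both ES lines, and the difference was 2.80 ± 0.49 (adjusted p = 0.00244). Myc has 3 probes, and the one across its stop codon had levels of 6.64, 5.86, 5.91 and 6.60 in the clones and 1.56 and 1.48 in the ES lines. Again every clone lay above both ES lines, by 4.73 ± 0.48 (adjusted p = 0.000106). Sox2, the partner of Oct4 on many enhancers, had levels of 1.09, 1.08, 1.62 and 0.69 in the clones and 3.76 and 3.41 in the ES lines. Klf4 had levels of 2.21, 2.14, 2.19 and 2.97 in the clones and 5.06 and 5.81 in the ES lines. For both genes every clone was below both ES lines, with a difference of -2.46 ± 0.61 (adjusted p = 0.0146) for Sox2 and -3.06 ± 0.56 (adjusted p = 0.00313) for Klf4. Klf4 was at 4.97 and Sox2 at -0.26 in the MEFs. So of the 4 factors that iHAC1 carries in equal copies, 2 were above the ES level by these probes and 2 below it. By RT-PCR, the paper reports that the transgenic factors were expressed above the endogenous ones in such clones. Where the Sox2 and Klf4 probes lie within their transcripts was not examined. Their lower levels therefore do not show that the vector's copies were weakly expressed. The array values do not separate transcripts of the vector from those of the endogenous genes.

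Where a probe lies in the transcript bears on this, since a cDNA on a vector may lack parts of the endogenous transcript. The 3 probes of Myc are shown because they disagree. The coordinates are those of mm9, on the plus strand, and capitals mark the stop codon in the middle probe.
Myc probe upstream of the stop codon: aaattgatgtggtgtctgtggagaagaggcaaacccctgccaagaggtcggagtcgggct
Myc probe across the stop codon: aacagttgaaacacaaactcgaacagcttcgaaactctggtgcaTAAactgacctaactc
Myc probe downstream of the stop codon, its first 30 bases: gttccttctgacagaactgatgcgctggaa
The upstream probe lies at chr15:61820925-61820984 and the middle one at chr15:61821417-61821476. The third probe begins 53 bases past the stop codon, at chromosome 15, position 61821516, and lies in the 3′ UTR. The upstream probe had levels of 4.66, 3.63, 3.80 and 4.53 in the clones and -0.83 and -1.08 in the ES lines, a difference of 5.11 ± 0.53 (adjusted p = 0.000123). The downstream probe had levels of -1.28, -0.57, -0.33 and 0.29 in the clones and 2.45 and 2.39 in the ES lines, a difference of -2.89 ± 0.40 (adjusted p = 0.000619). Signal past the stop codon was thus below the ES lines in every clone, while signal before and across it was above them in every clone.

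The single Pou5f1 probe lies in coding sequence, and it holds the whole forward primer, Oct4-906F, of the study's PCR assay for endogenous Oct4. It is shown with that primer in capitals.
Pou5f1 probe: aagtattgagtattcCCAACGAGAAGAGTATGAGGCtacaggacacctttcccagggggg
It is placed at chr17:35647280-35647340 in mm9. Being coding, it can hybridise to RNA of the vector's cDNA as well as to RNA of the endogenous gene.

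Beyond the vector's factors, the core and naive pluripotency list has 18 tested genes, of which 13 were called lower and 0 higher. The median difference was -2.66, with medians of -3.58, -2.13, -1.82 and -3.64 in the single clones. Once slide was a term, 10 were called lower. In 17 of the 18 genes every clone was below both ES lines, against 24.1% of all genes. Nanog, a homeodomain factor that marks the established ES state, had levels of -1.01, -0.12, 0.66 and -1.74 in the clones and 1.93 and 2.48 in the ES lines. All clones were lower, with a difference of -2.76 ± 0.71 (adjusted p = 0.0174). Esrrb, a nuclear receptor of the naive network, had levels of -7.31, -4.35, -3.16 and -7.66 in the clones and 2.86 and 3.12 in the ES lines, and Zfp42 (Rex1), a zinc-finger marker of naive cells, had -5.82, -4.08, -3.41 and -5.35 in the clones and 2.91 and 5.23 in the ES lines. Both were well above background in 1-B and 1-C3 only among the clones. The differences were -8.61 ± 1.11 (adjusted p = 0.000446) for Esrrb and -8.74 ± 0.88 (adjusted p = 0.000105) for Zfp42. Tfcp2l1, a LIF target that sustains naive cells, had levels of -3.53, -2.86, -1.71 and -3.40 in the clones and 3.0 and 3.31 in the ES lines, and all clones were lower, with a difference of -6.03 ± 0.74 (adjusted p = 0.000319).

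The other members called lower were of smaller or similar size. Nr5a2, which binds Pou5f1 enhancers, differed by -5.82 ± 1.03 (adjusted p = 0.0026) and was well above background in 1-B and 1-C3 only among the clones. Zfp296 differed by -4.13 ± 0.77 (adjusted p = 0.00347), Tcl1 by -3.83 ± 0.83 (adjusted p = 0.0076) and Klf5 by -3.78 ± 0.55 (adjusted p = 0.000893). Zscan10 had levels of -1.63, 0.89, 1.36 and -1.05 in the clones and 3.24 and 2.86 in the ES lines and differed by -3.16 ± 0.67 (adjusted p = 0.00697). Sall1 and Foxd3 differed by -2.57 ± 0.49 and -2.27 ± 0.74 (adjusted p = 0.00367 and 0.0459). Sall4, an early member of the network, differed by -1.66 ± 0.43 (adjusted p = 0.0183) and Rarg, a retinoic acid receptor, by -1.62 ± 0.28 (adjusted p = 0.00223). Among the members not called, Klf2 had levels of 7.39, 7.45, 7.39 and 7.64 in the clones and 7.37 and 6.91 in the ES lines, so clones and ES lines were near each other. Nr0b1 had levels of -1.30, 2.56, 2.62 and 2.35 in the clones and 3.44 and 3.87 in the ES lines, with 1-A3 far below the other clones. Tbx3 and Gbx2, also not called, had differences of -1.88 ± 0.68 and -1.24 ± 1.16. Klf2 has a second probe that differed by -4.59 from the ES lines, so the probes of this gene disagree.

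**Figure D3:**
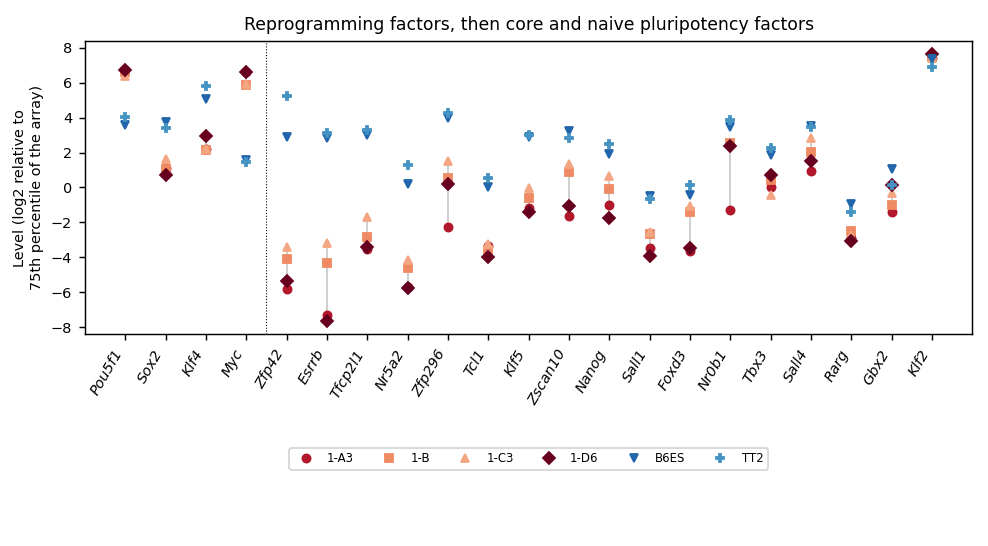
Level (log2 relative to the array's 75th percentile) of the 4 reprogramming factors, left of the dotted line, and of core and naive pluripotency factors, ordered by their difference, with 1 symbol per line and a grey bar over the range of the clones. Pou5f1 and Myc lie above the ES lines in every clone, and of the factors plotted at the right all but Klf2 lie below them in every clone.

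Genes that mark pluripotent cells without being part of that core also fell in part. Of 25 tested, 15 were called lower and 0 higher, with a median of -3.64 and clone medians of -4.29, -1.80, -1.74 and -4.57. Dppa3 (Stella), a maternal-effect and germ cell protein, had levels of -6.09, -7.50, -4.43 and -6.52 in the clones and 3.64 and 4.06 in the ES lines. It was well above background in 1-C3 only among the clones and differed by -9.99 ± 0.80 (adjusted p = 2.77e-05). Dppa5a, an RNA-binding protein of the ES state, had levels of -1.67, 0.44, 3.29 and -1.18 in the clones and 8.98 and 8.41 in the ES lines, with every clone at least 5 log2 units below both ES lines. Khdc3 (Filia) and Ooep, members of the subcortical maternal complex of the egg, were lower too. Khdc3 was well above background in no clone and at least 392-fold lower, and Ooep differed by -8.74 ± 0.84 (adjusted p = 7.63e-05). Of the members not called, Gdf3, a TGF-beta family ligand, had levels of 2.74, 0.94, 2.40 and 2.03 in the clones and 2.36 and 2.26 in the ES lines, and the groups overlapped. Phc1, a Polycomb subunit that is high in ES cells, had levels of 1.97, 4.60, 4.04 and 2.47 in the clones and 4.96 and 4.82 in the ES lines, with 1-A3 and 1-D6 below the rest.

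Genes of the primed epiblast, the stage after the naive one, split. Of 14 tested, 2 were called higher and 3 lower. Sox11, a neural progenitor factor, had levels of 4.14, 3.10, 3.38 and 3.76 in the clones and 0.59 and 0.72 in the ES lines and differed by 2.94 ± 0.24 (adjusted p = 2.89e-05). Car14, a carbonic anhydrase, had levels of 3.57, 2.95, 3.37 and 3.28 in the clones and -0.36 and 0.70 in the ES lines and differed by 3.12 ± 0.74 (adjusted p = 0.0117). All clones were above both ES lines for these genes. Fgf5, the classical marker of the primed state, was at -4.01, 2.33, 3.37 and -1.45 in the clones and 0.51 and 2.97 in the ES lines. The clones spanned a wider range than the ES lines, with 1-A3 and 1-D6 at the low end, and the gene was not called.

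Surface markers used to sort reprogrammed cells also split, with 3 of 13 called higher and 3 lower. Alpl, the alkaline phosphatase that stains ES colonies, had levels of 4.24, 3.48, 3.53 and 4.12 in the clones and 3.84 and 3.92 in the ES lines, with the groups overlapping, and -3.12 in the MEFs. Epcam had levels of -2.47, 1.38, 1.21 and -1.63 in the clones and 3.42 and 3.30 in the ES lines, with all clones lower, with a difference of -3.74 ± 0.86 (adjusted p = 0.0102). Icam1, another adhesion molecule, differed by -2.44 ± 0.40 (adjusted p = 0.0018). Pecam1 differed by -4.42 ± 1.05 (adjusted p = 0.0119) and was well above background in 1-B only among the clones. The members called higher were Cd59a, an inhibitor of complement, by 4.70 ± 0.95 (adjusted p = 0.00529), Podxl, a sialomucin, by 2.04 ± 0.29 (adjusted p = 0.000781), and Cd24a by 1.93 ± 0.59 (adjusted p = 0.0367).

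Epithelial genes showed the lowest median of the lists. Of 35 genes of junctions and epithelial identity, 30 (85.7%) were called lower and 0 higher, and the median was -3.66. In 33 of them every clone was below both ES lines, against 24.1% of all genes. The clone medians of -5.60, -2.22, -2.19 and -4.94 put 1-A3 and 1-D6 lowest, against -3.69 for the MEFs. Cdh1, E-cadherin, had levels of -7.35, 1.45, 1.62 and -2.17 in the clones and 4.51 and 3.82 in the ES lines. It spanned about 9 log2 units among the clones, was not well above background in 1-A3, and differed by -5.78 ± 1.83 (adjusted p = 0.0415). Grhl2, a transcription factor that maintains epithelial genes, had levels of -5.67, -2.39, -3.52 and -5.15 in the clones and 1.73 and 1.68 in the ES lines, and all clones were lower, with a difference of -5.89 ± 0.68 (adjusted p = 0.000211). Cldn4 and Cldn6 encode tight-junction claudins. Cldn4 had levels of -7.51, -6.37, -5.28 and -7.99 in the clones and 0.37 and -0.57 in the ES lines and differed by -6.69 ± 0.69 (adjusted p = 0.000116), while being well above background in 1-C3 only among the clones. Cldn6 had levels of -7.43, -0.64, -0.24 and -4.22 in the clones and 1.65 and 1.75 in the ES lines, with 1-B and 1-C3 within about 2.5 log2 units of the ES lines and 1-A3 and 1-D6 much farther below.

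The member with the largest fall was Ap1m2, a subunit of the epithelial clathrin adaptor that sorts proteins to the basolateral side. Its levels were -4.77, -7.69, -5.75 and -7.40 in the clones and 1.31 and 1.03 in the ES lines, it was well above background in 1-A3 only among the clones, and it differed by -7.57 ± 0.75 (adjusted p = 9.98e-05). The second probe of Ap1m2 differed by 0.21, so its probes disagree. The 150 bases before its transcription start are shown because they hold CACCTG, the E-box bound by Snail and Zeb repressors, 4 times. The sequence is that of the gene's strand (minus) at chr9:21312334-21312483 in GRCm38.p6, from RefSeq, with the E-boxes in capitals.
Ap1m2 promoter: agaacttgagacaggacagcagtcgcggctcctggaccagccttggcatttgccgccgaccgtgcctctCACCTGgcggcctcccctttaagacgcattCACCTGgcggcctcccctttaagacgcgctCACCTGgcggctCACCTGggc
Over promoters from 250 bases before to 50 after the start, 22.3% of 13325 tested genes with a RefSeq promoter held CACCTG or its complement CAGGTG. Since 22 of the 35 epithelial genes had a promoter in that table, a share for the list is void. A match is a description of the sequence and says nothing of binding.

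Epithelial genes with little change were few. Lsr had levels of 4.23, 5.02, 5.39 and 4.64 in the clones and 5.77 and 5.70 in the ES lines and Tjp1 (ZO-1) had -0.49, 0.12, -0.08 and -0.33 in the clones and 0.54 and 0.35 in the ES lines, both differences being under 2-fold. Krt19 had levels of -2.78, 1.74, -0.25 and -0.89 in the clones and 1.88 and 0.73 in the ES lines, with 1-B at the height of the ES lines. Krt8, the keratin of simple epithelia, had levels of -3.53, 2.24, 3.21 and -0.97 in the clones and 4.88 and 4.27 in the ES lines and was called lower, with a difference of -4.34 ± 1.39 (adjusted p = 0.0436). Of 26 keratin genes tested of 40 listed, 8 were called lower and 0 higher. Krt17, -4.36 ± 0.58, and Krt7, -4.18 ± 0.97, were among them. With slide as a term, 22 of the 35 epithelial genes were called lower.

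**Figure D4:**
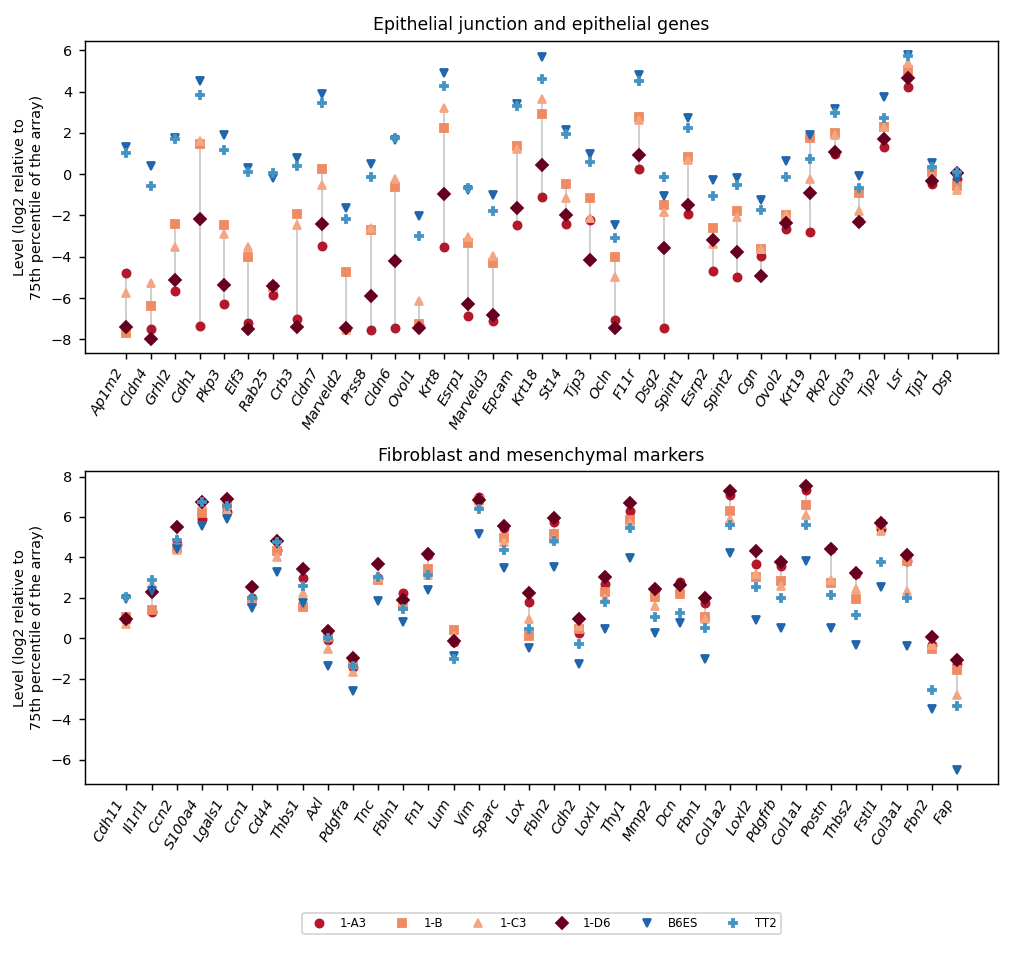
Level (log2 relative to the array's 75th percentile) of the 35 epithelial genes and of the 34 fibroblast and mesenchymal markers, each ordered by its difference, with 1 symbol per line and a grey bar over the range of the clones. In the upper panel 1-A3 and 1-D6 mostly lie lowest and the ES lines highest, and in the lower panel B6ES mostly lies lowest.

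On the mesenchymal side, 13 of 34 fibroblast markers (38.2%) were called higher and 1 lower, with a median of 1.28. The ES lines themselves differed: their medians were -0.61 for B6ES and 0.61 for TT2 around their mean, against 1.54, 1.08, 0.90 and 1.68 for the clones and 2.22 for the MEFs. On the same scale 20D17 was at 1.28, within the range of the clones. The means of the iHAC2-iPS clones and of the vector-free lines were at 0.27 and 0.61. Col3a1, a fibrillar collagen, had levels of 3.80, 3.81, 2.34 and 4.10 in the clones and -0.36 and 1.97 in the ES lines and differed by 2.71 ± 0.69 (adjusted p = 0.017). Fbn2, a fibrillin of embryonic matrix, had levels of -0.33, -0.55, -0.31 and 0.07 in the clones and -3.51 and -2.56 in the ES lines and differed by 2.76 ± 0.35 (adjusted p = 0.000389). Fstl1, a secreted glycoprotein, had levels of 5.43, 5.63, 5.29 and 5.73 in the clones and 2.51 and 3.77 in the ES lines and differed by 2.38 ± 0.39 (adjusted p = 0.00182). In these 3 genes every clone was above both ES lines. Fap, a protease of activated fibroblasts, had levels of -1.29, -1.58, -2.81 and -1.07 in the clones and -6.50 and -3.33 in the ES lines and differed by 3.23 ± 0.83 (adjusted p = 0.0173). Several hallmark fibroblast genes were not called. Vim had levels of 6.98, 6.82, 6.63 and 6.84 in the clones and 5.16 and 6.42 in the ES lines, S100a4 had 5.91, 6.21, 6.63 and 6.74 in the clones and 5.54 and 6.75 in the ES lines and Lgals1 had 6.25, 6.61, 6.37 and 6.88 in the clones and 5.90 and 6.55 in the ES lines, with TT2 inside or near the range of the clones for each. Cdh11 was the marker called lower, with a difference of -1.09 ± 0.25 (adjusted p = 0.00953). Feeder MEFs express the same genes, and their part in these levels was not tested. With slide as a term, 2 of the 34 markers were called higher, and the count was 2 without B6ES and 6 without 1-A3 or without 1-D6.

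Matrix genes moved in both directions. Of 39 collagen genes tested, 15 were called higher and 6 lower. Col6a2, of the beaded filament collagen, differed by 2.73 ± 0.62 (adjusted p = 0.00968) and Col11a1, a cartilage collagen, by 2.70 ± 0.56 (adjusted p = 0.00611). Col4a1 and Col4a2, which form basement membrane, had levels of 2.49, 2.43, 1.94 and 2.96 in the clones and 0.32 and 1.37 in the ES lines and 3.37, 3.05, 2.67 and 3.71 in the clones and 1.03 and 2.03 in the ES lines and were higher in every clone. Among those lower were Col13a1, at least 7.36-fold, and Col17a1, at least 5.48-fold, transmembrane collagens well above background in no clone. Of 39 matrix metalloproteases and their inhibitors, 10 were called higher and 1 lower, among them Adamts7, with 3.25 ± 0.49 (adjusted p = 0.00115). Mmp14, the membrane-bound collagenase, was not called, with a difference of 0.54 ± 0.32. Of 28 integrin genes 3 were called higher and 2 lower. The collagen receptor Itga11 was higher, by 3.08 ± 0.75 (adjusted p = 0.0135), and Itgb7, a leukocyte integrin chain, was lower, with a difference of -4.59 ± 0.82 (adjusted p = 0.00261). Of 11 laminins, 2 were called higher, led by Lama4 with 3.05 ± 0.80 (adjusted p = 0.0183), and 1 lower, Lamb3.

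Of 25 mesenchymal transcription factors, 6 were called higher and 1 lower, with a median of 0.53. Foxd1, a forkhead factor of kidney and lung stroma, had levels of 4.64, 2.39, 4.22 and 5.06 in the clones and -3.82 and -3.50 in the ES lines and differed by 7.74 ± 1.28 (adjusted p = 0.00182). The MEFs were at 0.95, so the clones were above them too. Foxc1 differed by 2.34 ± 0.52 (adjusted p = 0.00889), Tbx15 by 2.19 ± 0.51 (adjusted p = 0.0105) and Msx1 by 1.89 ± 0.38 (adjusted p = 0.00479). Snai2 (Slug), a repressor of E-cadherin, had levels of 2.25, 2.44, 2.10 and 3.13 in the clones and 1.03 and 2.54 in the ES lines, and TT2 lay within the clones. The single member called lower, Meox2, was not well above background in any of the 6 arrays. None of 20 contractile genes was called, with 3 at an unadjusted limma p below 0.05, a smaller share than over all genes. Acta2, smooth-muscle actin, had levels of 6.68, 5.53, 5.59 and 7.50 in the clones and 4.98 and 5.96 in the ES lines, with 1-A3 and 1-D6 highest. Of 37 Hox genes 0 were called higher and 1 lower, with a median of 0.24 against 2.31 for the MEFs.

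Many germline genes were also lower. ES cells transcribe a set of genes that otherwise serve meiosis and the defence against transposons in germ cells. Of 49 listed, 42 were tested, 27 (64.3%) were called lower and 1 higher, and the median was -3.16, or -2.42 with probes below background set at their bound. In 21 of the 42 no clone was well above background, against 6 for the ES lines. A gene could be tested if any of the 16 arrays, most of them not of these clones, read it well above background. The filter can thus admit genes that are dark in the clones, and these counts were not set beside their share over all genes. Rbmxl2, an RNA-binding protein of spermatocytes, had levels of -7.26, -7.38, -7.46 and -7.61 in the clones and 2.98 and 2.97 in the ES lines and was at least 520-fold lower (adjusted p = 0.00164). Syce1, of the synaptonemal complex, had levels of -7.43, -7.57, -7.67 and -7.83 in the clones and 0.98 and -1.13 in the ES lines and was at least 62.7-fold lower (adjusted p = 0.000263). Ddx4 (Vasa), the germ cell RNA helicase, had levels of -4.76, -5.18, -5.69 and -5.57 in the clones and 1.58 and 0.65 in the ES lines and differed by -6.41 ± 0.91 (adjusted p = 0.000794), being well above background in 1-A3 only among the clones. All clones were below both ES lines for each of these genes. Tdrkh, a Tudor protein of the piRNA pathway, went the other way, with levels of 0.47, 1.22, 0.90 and 0.34 in the clones and -0.87 and -0.35 in the ES lines and a difference of 1.34 ± 0.27 (adjusted p = 0.00543). Tdrd7, another Tudor protein, had levels of 0.85, 0.28, 0.43 and 1.03 in the clones and -0.46 and 0.36 in the ES lines and was not called. With slide as a term, 21 of the 42 were called lower.

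Promoters of this list were searched for CACGTG, the E-box bound by Myc and Max and by Mga, and for TCCCGC, an E2F6-type site, on both strands from 250 bases before to 50 after the start. CACGTG stood in 16 of the 38 germline promoters in the RefSeq table (42.1%) and in 12 of the 24 whose genes were called lower, against 10.7% of 13325 promoters of tested genes. TCCCGC or its complement GCGGGA stood in 42.1% of the germline promoters, in 14 of the 24 of genes called lower (58.3%) and in 35.0% of all. CACCTG or its complement, the E-box searched above, stood in 39.5% of the germline promoters, in 11 of the 24 (45.8%) and in 22.3% of all. The motifs were chosen with the results of these genes known, and no test was made. Below, 150 bases before the start of 4 genes are shown with CACGTG in capitals, each on the strand of its gene in GRCm38.p6. The genes were chosen after their values were seen, as members called lower that hold the motif there.
Ddx4 promoter: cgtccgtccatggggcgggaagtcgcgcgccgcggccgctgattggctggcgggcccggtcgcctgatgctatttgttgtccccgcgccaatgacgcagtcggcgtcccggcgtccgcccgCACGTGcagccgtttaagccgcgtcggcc
Tdrd1 promoter: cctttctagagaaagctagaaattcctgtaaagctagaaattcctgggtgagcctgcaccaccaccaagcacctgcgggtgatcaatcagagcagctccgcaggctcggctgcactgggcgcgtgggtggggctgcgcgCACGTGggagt
Sycp3 promoter: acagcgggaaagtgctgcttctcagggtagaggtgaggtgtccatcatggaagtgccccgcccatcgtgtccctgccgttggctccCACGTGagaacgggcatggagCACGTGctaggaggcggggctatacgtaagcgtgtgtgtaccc
Fkbp6 promoter: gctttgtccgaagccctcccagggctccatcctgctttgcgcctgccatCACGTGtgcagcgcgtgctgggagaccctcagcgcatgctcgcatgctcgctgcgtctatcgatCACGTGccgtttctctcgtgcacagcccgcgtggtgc
They lie at chr13:112652311-112652460 (minus), chr19:56826059-56826208 (plus), chr10:88459437-88459586 (plus) and chr5:135350045-135350194 (minus). Tdrd1, a scaffold of the piRNA pathway, had levels of -7.14, -5.68, -3.56 and -6.74 in the clones and 0.11 and -1.30 in the ES lines. Sycp3, of the chromosome axis in meiosis, had -7.40, -6.29, -3.99 and -7.76 in the clones and -0.86 and -1.71 in the ES lines. The differences were -5.19 ± 0.77 (adjusted p = 0.00104) for Tdrd1 and -5.07 ± 0.91 (adjusted p = 0.00277) for Sycp3, and among the clones both were well above background in 1-C3 only. Fkbp6, a chaperone of the piRNA pathway, was well above background in both ES lines and in no clone, and was at least 8.16-fold lower (adjusted p = 0.0109).

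Trophectoderm genes, which mark the outer cells of the blastocyst, had 9 of 23 called lower and 2 higher. The reproductive homeobox genes of the X chromosome were among the lowest. Rhox6 had levels of -7.04, -6.67, -5.76 and -6.67 in the clones and 4.60 and 2.23 in the ES lines and was at least 679-fold lower (adjusted p = 2.08e-05). Rhox9 had levels of -4.24, -5.06, -4.61 and -5.23 in the clones and 4.57 and 2.39 in the ES lines and Rhox5 (Pem) had -2.75, 1.72, 0.69 and -1.55 in the clones and 5.98 and 4.72 in the ES lines, with every clone below both ES lines. Esx1, a placental homeobox gene, was higher, with levels of 3.81, 2.10, 3.5 and 4.08 in the clones and -0.04 and -2.63 in the ES lines and a difference of 4.71 ± 0.95 (adjusted p = 0.00527). Tfap2a also was higher, by 2.12 ± 0.29 (adjusted p = 0.000641). Of the genes of the 2-cell stage, 9 of 20 listed were tested and 2 were called lower, among them Zscan4c, at least 5.25-fold. The Zscan4 genes are near-identical copies, so this probe may read several of them.

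**Figure D5:**
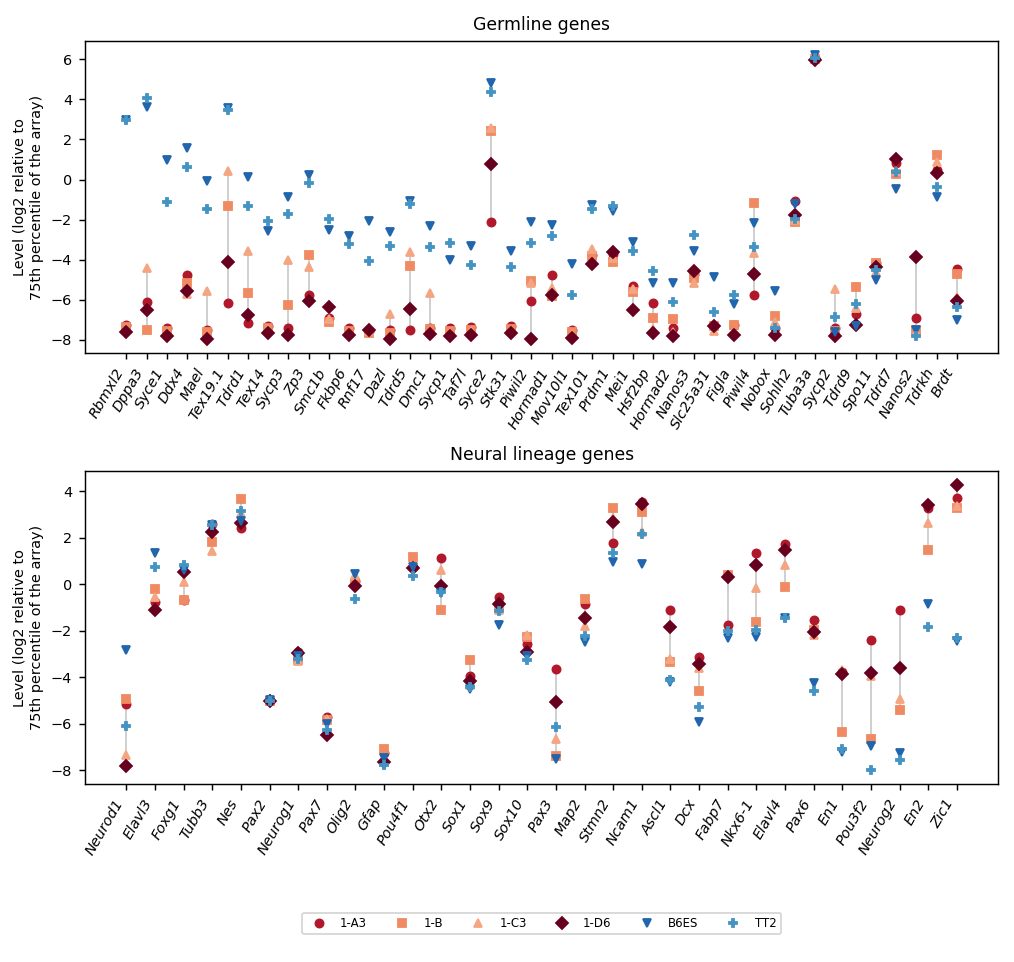
Level (log2 relative to the array's 75th percentile) of the 42 germline genes and of the 30 neural lineage genes, each ordered by its difference, with 1 symbol per line and a grey bar over the range of the clones. Germline genes at the left lie near or below background in the clones, and neural genes at the right lie above both ES lines in every clone.

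Genes of differentiated lineages moved in both directions. Of 30 neural genes tested, 13 (43.3%) were called higher and 1 lower, with a median of 0.91 and clone medians of 0.79, 0.76, 0.65 and 0.74. The MEF median was 1.60. Zic1, a zinc-finger factor of the dorsal neural tube, had levels of 3.70, 3.25, 3.36 and 4.24 in the clones and -2.47 and -2.32 in the ES lines. All clones were higher, by 6.03 ± 0.59 (adjusted p = 9.1e-05), and the MEFs were at 2.92. En2, of the midbrain and cerebellum, had levels of 3.26, 1.45, 2.63 and 3.39 in the clones and -0.86 and -1.86 in the ES lines and differed by 4.04 ± 0.78 (adjusted p = 0.00401), with the MEFs at -2.91. Neurog2 and Pou3f2, both neuronal factors, were well above background in 3 clones and in neither ES line, and were at least 5.94-fold and 4.42-fold higher. Tubb3, a neuronal tubulin, had levels of 2.60, 1.83, 1.42 and 2.24 in the clones and 2.52 and 2.54 in the ES lines and was not called. Elavl3, a neuronal RNA-binding protein, was lower, with a difference of -1.70 ± 0.50 (adjusted p = 0.031). With slide as a term, 4 of the 30 were called higher, and 4 without B6ES.

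Of 24 primitive endoderm and endoderm genes, 2 were called higher, the basement-membrane collagens named above, and 4 lower. Foxa3 was at least 6.08-fold lower, and Sox7 differed by -2.40 ± 0.71 (adjusted p = 0.0326). Of 20 mesoderm genes 2 were called lower, Tal1 and Nkx2-5. Eomes, a T-box factor of early mesoderm, had levels of -5.09, -1.94, 0.16 and -3.74 in the clones and -2.38 and 0.06 in the ES lines, so it spread over more than 5 log2 units in the clones, with 1-C3 highest. Of 11 endothelial genes 6 were called lower, including Vwf, with -3.75 ± 0.76 (adjusted p = 0.00547), and Cldn5, with -4.02 ± 0.84 (adjusted p = 0.00621).

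Among 15 blood genes, 2 were called higher and 2 lower. The embryonic beta-like globin Hbb-bh1 had levels of 1.95, 1.67, 1.56 and 2.26 in the clones and -5.44 and -6.74 in the ES lines. It was well above background in all clones and in neither ES line, and was at least 246-fold higher (adjusted p = 1.94e-05). The MEFs were at -6.39, and another probe of the gene differed by -0.98, so the probes disagree. Hbb-y, also an embryonic globin, was at least 2.34-fold higher. Of other blood markers, Ptprc (CD45), of leukocytes, was well above background in all 6 arrays, and Hba-a1, an adult globin, in 1-C3 among the clones and in both ES lines. Whether blood cells had a part in the globin signal was not tested.

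Of 19 genes of the Nodal pathway, 1 was called higher and 3 lower. Nodal itself, the ligand made by ES cells and epiblast, had levels of -2.99, -0.14, 1.35 and -3.15 in the clones and 3.04 and 3.21 in the ES lines, with 1-A3 and 1-D6 lowest and all clones below the ES lines, with a difference of -4.36 ± 0.99 (adjusted p = 0.00934). Its feedback antagonist Lefty1 had levels of 0.74, 5.16, 4.58 and 2.19 in the clones and 5.0 and 4.94 in the ES lines, with 1-B above both ES lines and 1-A3 and 1-D6 below. The related ligand Gdf1 was lower, with a difference of -2.67 ± 0.37 (adjusted p = 0.000631), the inhibitory Smad7 also, with a difference of -1.66 ± 0.36 (adjusted p = 0.00772), and Smad3, which carries the signal, was higher, by 1.66 ± 0.22 (adjusted p = 0.000531). Of 14 TGF-beta genes, Bgn was higher, by 1.42 ± 0.40 (adjusted p = 0.0247), and Ltbp4, which tethers latent TGF-beta, was lower, with a difference of -1.74 ± 0.26 (adjusted p = 0.00112).

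In the FGF pathway, 0 of 13 ligands tested were called higher and 2 lower. Fgf17, a ligand of the Fgf8 subfamily, differed by -4.07 ± 0.66 (adjusted p = 0.00164) and Fgf21, by 1 of its 2 probes, was at least 3.08-fold lower. Fgf8 had levels of -3.08, 1.60, 3.69 and -1.45 in the clones and -0.90 and 3.11 in the ES lines, spread over more than 6 log2 units in the clones and 4 in the ES lines. Of 5 receptors, Fgfrl1, a receptor without a kinase, was higher, by 1.09 ± 0.19 (adjusted p = 0.00263). Of 13 feedback targets, which report the activity of the pathway, Spry2 was lower, with a difference of -1.24 ± 0.40 (adjusted p = 0.047). Dusp6 had levels of 2.32, 4.84, 4.95 and 3.62 in the clones and 5.28 and 5.15 in the ES lines and was not called.

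LIF keeps mouse ES cells undifferentiated through Stat3. Of 21 genes of that pathway 2 were called higher, Jak2 and Stat5b, and 1 lower, the kinase Pim1, with a difference of -1.48 ± 0.31 (adjusted p = 0.00596). The feedback target Socs3 had levels of 3.93, 4.61, 4.2 and 3.74 in the clones and 4.36 and 4.56 in the ES lines, with the groups overlapping. Of 26 BMP genes 3 were called higher and 2 lower. The ligand Bmp4 had levels of -3.96, -3.81, -3.63 and -4.17 in the clones and -0.68 and -1.01 in the ES lines and differed by -3.05 ± 0.66 (adjusted p = 0.00773). The receptor Bmpr2 and the transducer Smad5 were higher, by 1.23 ± 0.24 and 1.44 ± 0.26 (adjusted p = 0.00437 and 0.00297). Id1, the classical target of BMP in ES cells, had levels of 1.86, 3.27, 2.78 and 2.50 in the clones and 2.80 and 2.53 in the ES lines and was not called.

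Of 19 Wnt ligands, 0 were called higher and 3 lower (15.8%), and of 18 receptors 2 were called higher (11.1%) and 0 lower. Over all genes 7.1% were called higher and 7.58% lower, and counts this small do not set the lists apart from that. The ligand median was -0.16, or 0.04 with probes below background set at their bound. Wnt3a was at least 6.56-fold lower and Wnt10a at least 5.92-fold, and Wnt7b differed by -1.47 ± 0.29 (adjusted p = 0.00495). Fzd3 was higher, by 1.92 ± 0.31 (adjusted p = 0.00171). Among 12 inhibitors, 3 were called higher and 1 lower. Apcdd1 had levels of 4.13, 4.69, 3.05 and 3.53 in the clones and 0.59 and 1.90 in the ES lines and Notum, which cleaves the lipid from Wnt, differed by -3.79 ± 0.61 (adjusted p = 0.00161). Tcf7l1 (Tcf3), the repressor that Wnt relieves in ES cells, was lower, with a difference of -1.18 ± 0.20 (adjusted p = 0.00206). Of 16 Notch genes 4 were called higher and 1 lower, with a median of 0.90. The target Heyl had levels of -0.86, -1.29, -1.94 and -0.51 in the clones and -5.73 and -3.77 in the ES lines and differed by 3.60 ± 0.75 (adjusted p = 0.00626). Nrarp, another target, differed by 2.08 ± 0.54 (adjusted p = 0.0183) and the ligand Jag1 by 1.12 ± 0.35 (adjusted p = 0.0401). The ligand Dll3 was lower, with a difference of -2.09 ± 0.47 (adjusted p = 0.00916).

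Of 20 genes that write, erase or read DNA methylation, 2 were called higher and 4 lower. Dnmt3l, the partner of the de novo methyltransferases, had levels of -3.73, -3.05, 0.09 and -2.77 in the clones and 5.39 and 5.38 in the ES lines. Every clone was at least 5 log2 units below both ES lines, and the difference was -7.75 ± 1.00 (adjusted p = 0.000438). Dnmt3a differed by -2.41 ± 0.45 (adjusted p = 0.00334). Dnmt3b had levels of -0.70, 3.71, 4.29 and 0.50 in the clones and 4.60 and 5.13 in the ES lines, with 1-B and 1-C3 near the ES lines and 1-A3 and 1-D6 far below, and it was not called (adjusted p = 0.0794). Among the enzymes that oxidise methylcytosine, Tet1 was lower, with a difference of -2.11 ± 0.52 (adjusted p = 0.0138), and Tet3 higher, by 1.90 ± 0.43 (adjusted p = 0.00898). Zfp57, which guards imprints, was lower, with a difference of -1.27 ± 0.38 (adjusted p = 0.0334), and Uhrf1, the partner of the maintenance enzyme, had levels of 4.10, 4.49, 4.13 and 4.14 in the clones and 4.53 and 4.26 in the ES lines.

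Of 30 Polycomb genes, which repress developmental regulators, 4 were called higher and 5 lower. Cbx7, the chromodomain subunit of ES cells, had levels of -0.75, -1.09, 0.54 and -1.68 in the clones and 3.36 and 2.93 in the ES lines and differed by -3.89 ± 0.67 (adjusted p = 0.00216). Bmi1, which represses the Ink4a locus, had levels of 0.32, -0.86, -0.37 and 0.47 in the clones and -3.10 and -3.23 in the ES lines, with all clones above both ES lines by 3.05 ± 0.40 (adjusted p = 0.000482). Jarid2 and Eed, of Polycomb complex PRC2, were lower, with a difference of -2.0 ± 0.33 and -1.84 ± 0.32 (adjusted p = 0.00175 and 0.0022).

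Of 37 imprinted genes, 5 were called higher and 3 lower. Plagl1 (Zac1), a zinc-finger regulator of the imprinted network, had levels of 3.91, 2.40, 3.34 and 3.40 in the clones and 0.29 and 1.31 in the ES lines and differed by 2.46 ± 0.48 (adjusted p = 0.00422). Peg12 differed by 2.53 ± 0.62 (adjusted p = 0.0142), Nap1l5 by 3.32 ± 0.90 (adjusted p = 0.0216) and Sgce by 1.64 ± 0.50 (adjusted p = 0.0346), with all clones above both ES lines for each of these genes. Those lower were Phlda2, which restrains placental growth, Snrpn and Dio3. Phlda2 had levels of -0.93, 3.08, 3.55 and -0.02 in the clones and 5.34 and 4.10 in the ES lines, with 1-A3 and 1-D6 lowest. Igf2, whose MEF level was 7.96, had 3.34, 3.64, 2.66 and 3.74 in the clones and 2.79 and 3.31 in the ES lines and was not called.

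Of 42 cell-cycle and replication genes tested, 2 were called higher and 3 lower. Ccnd2, cyclin D2, had levels of 5.80, 4.39, 5.28 and 5.62 in the clones and 2.91 and 3.60 in the ES lines and differed by 2.02 ± 0.41 (adjusted p = 0.00562), and E2f2 differed by 1.97 ± 0.35 (adjusted p = 0.00256). Ccne1, the cyclin E that is high in ES cells, was lower, with a difference of -1.27 ± 0.35 (adjusted p = 0.0246), with the replication genes Orc1, with a difference of -1.58 ± 0.26 (adjusted p = 0.0019), and Mcm3, with a difference of -1.04 ± 0.17 (adjusted p = 0.00164). Of 10 inhibitors of cyclin-dependent kinases and related genes 3 were called higher and 0 lower, and the median was 0.55. Cdkn1a (p21), the main arrest gene downstream of p53, had levels of 3.25, 3.27, 3.01 and 3.23 in the clones and 1.15 and 2.03 in the ES lines and differed by 1.60 ± 0.26 (adjusted p = 0.00175). Cdkn2a, which encodes p16Ink4a and p19Arf, had levels of 0.29, 1.07, 0.34 and 0.86 in the clones and -1.04 and -0.34 in the ES lines and differed by 1.33 ± 0.34 (adjusted p = 0.0172), with the MEFs at -2.72. Rb1 differed by 1.54 ± 0.33 (adjusted p = 0.00726). Trp53 itself was lower, with a difference of -1.02 ± 0.30 (adjusted p = 0.0293). By RT-PCR, the paper reports that p53, Ink4a, Arf and Cip1 (Cdkn1a) were near their ES levels in iHAC1-iPS cells and not raised. For Cdkn1a and Cdkn2a the array calls thus differ from the paper's RT-PCR, and the reason was not tested. Of 28 genes in the p53 list, Cdkn1a and Fas were called higher and Trp53 lower, and the median was 0.02. Rif1, which guards telomeres and replication timing, was the member called lower of 14 telomere genes, by -1.89 ± 0.19 (adjusted p = 0.000107).

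Few genes of the broad housekeeping classes were called. Of 84 cytosolic ribosomal protein genes, 2 were called lower and 0 higher, with a median of -0.14. Both called members are paralogs with restricted expression. Rps4l had levels of 1.42, 1.28, 1.54 and 2.29 in the clones and 7.32 and 7.24 in the ES lines and differed by -5.65 ± 0.60 (adjusted p = 0.00015), and Rpl39l differed by -2.06 ± 0.54 (adjusted p = 0.0192). Of 85 oxidative phosphorylation genes 4 were called lower, including Cox7a1, with a difference of -2.18 ± 0.56 (adjusted p = 0.0171), Cox7b2, at least 2.8-fold, and Cox8c, at least 2.38-fold, and the median was 0.03. Of 78 mitochondrial ribosomal genes Mrpl15 was lower, with a difference of -1.24 ± 0.21 (adjusted p = 0.00216). None of 30 ribosome biogenesis genes was called, with a median of -0.40 and 10 at an unadjusted limma p below 0.05. Over all genes, 7363 of 21189 were below that p, a share near that of this list. The direction was more uniform: in 21 of the 30 every clone was below both ES lines, and in 0 above. For the 84 cytosolic ribosomal protein genes these counts were 48 and 2. Over all genes the shares were 24.1% below and 23.7% above.

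Tdh, threonine dehydrogenase, feeds glycine and one-carbon units to mouse ES cells. It had levels of -1.65, 3.19, 4.66 and 1.90 in the clones and 7.23 and 7.20 in the ES lines, with all clones below both ES lines and 1-A3 lowest, and a difference of -5.19 ± 1.20 (adjusted p = 0.0105). Of the 19 one-carbon genes, Aldh1l2 and Mthfd2l, mitochondrial folate enzymes, were higher, by 2.74 ± 0.43 and 2.22 ± 0.39 (adjusted p = 0.00136 and 0.00234). Of 23 glycolysis genes, the enolase Eno2 was higher and the lactate dehydrogenase Ldhb lower, with a difference of 1.56 ± 0.39 and -1.93 ± 0.57. Ldha had levels of 8.11, 8.09, 8.25 and 8.18 in the clones and 8.02 and 7.89 in the ES lines. Among 29 glutathione and oxidative stress genes, 4 were called higher and 2 lower. Gstm5 was higher, by 3.01 ± 0.35 (adjusted p = 0.000236), with the cystine transporter Slc7a11, by 3.35 ± 0.81 (adjusted p = 0.0126), and Gpx2 lower, with a difference of -4.44 ± 0.55 (adjusted p = 0.000355). Of 25 cholesterol and lipid genes 1 was called, Scd2, by 1.01 ± 0.26 (adjusted p = 0.0162), and of 28 lysosomal genes 2 were higher, Lamp2 and Ctsk.

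Of 34 interferon response genes 4 were called lower and 0 higher. Ifitm1, an interferon-induced membrane protein that ES and primordial germ cells also express, had levels of -1.71, -0.67, 1.29 and -1.66 in the clones and 3.21 and 3.90 in the ES lines and differed by -4.24 ± 0.69 (adjusted p = 0.00174). Oas1a differed by -2.67 ± 0.35 (adjusted p = 0.000472). None of 17 antigen presentation genes was called, with 2 at an unadjusted limma p below 0.05, a smaller share than over all genes.

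Outside the lists, the genes with the largest changes in non-overlapping probes were read by rank. Among the rises, Avil, an actin-binding protein of sensory neurons, had levels of 0.56, -1.46, -1.05 and 0.37 in the clones and -7.14 and -6.99 in the ES lines and was at least 61.8-fold higher. Slc38a5, a transporter of glutamine and glycine, had levels of 3.18, 7.48, 5.15 and 3.97 in the clones and -1.35 and -1.56 in the ES lines and differed by 6.40 ± 1.01 (adjusted p = 0.00145). Zfp536 had levels of 3.73, 2.19, 2.37 and 2.79 in the clones and -3.04 and -3.22 in the ES lines and Vax2, a homeobox factor of the ventral eye, had 2.93, 2.71, 2.50 and 2.90 in the clones and -3.02 and -3.16 in the ES lines, with every clone above both ES lines. Myh2, a fast skeletal-muscle myosin, varied most, with levels of -0.52, -5.01, -3.22 and 1.61 in the clones and -7.60 and -7.68 in the ES lines. Of the falls, Zfp640, a zinc-finger gene, had levels of -6.62, -7.60, -7.43 and -7.87 in the clones and 1.22 and 0.99 in the ES lines and was at least 142-fold lower. Pla2g1b, a secreted phospholipase, had -7.25, -4.62, -2.46 and -6.11 in the clones and 1.84 and 1.94 in the ES lines. Stra8, the retinoic acid target that opens meiosis, had levels of -7.29, -7.64, -7.59 and -7.99 in the clones and 0.47 and -1.11 in the ES lines and was at least 52.9-fold lower. Mageb16, of the MAGE family on the X chromosome, had levels of -7.48, -4.43, -1.71 and -7.68 in the clones and 3.66 and 2.88 in the ES lines and differed by -8.59 ± 1.31 (adjusted p = 0.00116). Tdrd12, of the piRNA pathway, differed by -6.86 ± 0.81 (adjusted p = 0.000259) and Pramel13, of the Prame family, by -8.42 ± 0.81 (adjusted p = 8.06e-05). Trim6, a ubiquitin ligase, had levels of -7.56, -1.95, 0.27 and -6.02 in the clones and 3.46 and 2.74 in the ES lines, with 1-C3 about 2.5 log2 units below the nearer ES line and 1-A3 lowest.

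Clones 1-A3 and 1-D6 were farther from the ES lines than 1-B and 1-C3 in the epithelial, core and associated pluripotency and germline lists. As the description rests on these same 4 arrays, no test of it was made. The array of 1-A3 shared its slide with 1-B and 1-C3, and the part of the slide in this pattern was not tested. Within that slide, Cdh1 was at -7.35 in 1-A3 and 1.45 and 1.62 in 1-B and 1-C3, and Dnmt3b was at -0.70 against 3.71 and 4.29.

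Once slide was a term, which leaves 1-D6 against the ES lines, 58 of the 161 called genes named here were no longer called, and none of them changed direction. From the pluripotency, epiblast, surface, epithelial and keratin lists these were Sall4, Zfp296, Foxd3, Cdh1, Cldn6, Krt7, Krt8, Cd24a, Cd59a and Car14. Cdh1 was -6.34 in 1-D6 relative to the ES mean and Krt8 -5.55, so these lost the call while their difference was at least as large as over all clones. From the mesenchymal and matrix lists they were Cdh11, Col3a1, Fap, Col13a1, Col17a1, Itga11, Lama4, Foxc1, Msx1 and Tbx15, with 3.29 for Col3a1 and 3.85 for Fap. From the germline, neural, endoderm and endothelial lists they were Fkbp6, Tdrkh, Neurog2, Pou3f2, Elavl3, Sox7 and Vwf. From the signalling lists they were Bgn, Smad7, Fgf21, Fgfrl1, Spry2, Pim1, Bmp4, Smad5, Wnt10a, Apcdd1, Nrarp and Jag1, with -3.33 for Bmp4. From the chromatin and imprinted lists they were Zfp57, Plagl1, Peg12, Nap1l5, Sgce and Phlda2. From the cell-cycle, ribosomal and metabolic lists they were Ccne1, E2f2, Cdkn2a, Rb1, Trp53, Tdh, Eno2, Ldhb, Slc7a11, Scd2 and Rpl39l, with -5.31 for Tdh. Outside the lists they were Slc38a5 and Vax2.

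A gene was read by its brightest probe over the 16 arrays, and other probes of a gene did not always follow. Besides Myc, Klf2, Hbb-bh1, Fgf21 and Ap1m2, this held for Cdh11, whose 2 other probes differed by 1.09 and 1.11. It held for Trp53, whose other probe differed by 0.22, for Bgn, by -0.22, for Col13a1, by 0.31, and for Mrpl15, by 0.38. The other probe of Pecam1 differed by -0.05, that of Fap by 0.44, that of Sox7 by -0.35 and that of Spry2 by -0.14.

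The iHAC2-iPS clones give a second reference, on other slides read in another scan session, so vector and session cannot be told apart. Against them 8.66% of genes were called higher in the iHAC1-iPS clones and 11.6% lower, 20.3% in all. Of the 35 epithelial genes, 33 were called lower and 0 higher. Of the 42 germline genes the counts were 24 and 1, and of the 18 core pluripotency factors 10 and 0. Of the 34 fibroblast markers, 12 were called higher, as were 16 of 30 neural genes. Sex-linked transcripts differed too: of 6 tested, 5 were called lower in the iHAC1-iPS clones and 1 higher, with a median of -3.75. Beside the ES mean, the medians of the iHAC2-iPS and vector-free lines were 0.32 and 0.04 for the epithelial list and -1.18 and -0.31 for the core factors.

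Along the chromosomes, the median over probes well above background on all 6 arrays differed between groups by at most 0.08 on 17 of 20 chromosomes. The exceptions were chromosome 6 (0.12), chromosome 8 (-0.14) and the X chromosome (0.13). With 4 arrays against 2, an exact two-sided permutation test cannot go below p = 0.133, which 13 chromosomes reached, these included (adjusted p = 0.205 over 20 chromosomes). On chromosome 8 the ES lines themselves lay at 0.13 for B6ES and -0.13 for TT2 around their mean, and the clones, at -0.15 to -0.13, were at the value of TT2. Xist, the RNA that coats the inactive X chromosome, had levels of 0.33, 2.62, 0.32 and 1.91 in the clones and -1.94 and -1.0 in the ES lines, and all clones were higher, by 2.76 ± 0.61 (adjusted p = 0.00833). Its antisense partner Tsix had -6.39, -3.46, -4.87 and -4.17 in the clones and -3.16 and -3.61 in the ES lines and was not called. The Y-linked gene Ddx3y was at -2.54, -2.36, -3.17 and -1.93 in the clones and -2.56 and -2.40 in the ES lines, against 1.29 in the MEFs, and the groups overlapped.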

How the data were processed

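RNA of each line was labelled with Cy3 and hybridised to 1 Agilent mouse array by the authors, and the scans were read with Feature Extraction (version 10.7.1.1 or 10.7.3.1). The processed signal in the deposited files is an intensity from which the scanner software had subtracted background, with 43379 spots that are not controls per array. The series' table of log2 values was deposited too, made by the authors with GeneSpring GX 11, and after centring each probe over the arrays it matched the values used here with a slope of 1 and a correlation of at least 0.999991 on every array. Its column medians were -0.33 to 0.28, and how its probes were centred is not given in the sources used here. It served as an alternative.

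The processed intensities were averaged over spots of a probe, log2-transformed and reduced by each array's 75th percentile, outlier spots (at most 0.217% of an array) and control spots being left out. No spot was saturated, and 61.7 to 63.8% of spots were well above background on the 6 arrays compared. Of 41174 probes, 31423 were tested, namely those that any of the 16 arrays read well above background, 22531 of them well above background on all 6 arrays and 2929 on none of those 6. Linear models were fitted with limma 3.58.1 in R 4.3.3 over all 6 groups of the 16 arrays, which share 1 estimate of the spread (median 12.1 degrees of freedom), with no covariate. The 6 groups were the iHAC1-iPS clones, the ES lines, the iHAC2-iPS clones, the vector-free lines and the single arrays of MEFs and of 20D17. The fit was tested on simulated data. Each of 21189 genes was read by its brightest tested probe, by the mean over the 16 arrays. Coordinates of probes are those of mm9 in the files, and promoters are from RefSeq on GRCm38.p6. Summaries used Python 3.11.15 with pandas 2.3.3 and numpy 2.4.6, the exact permutation tests scipy 1.17.1 and the figures matplotlib 3.10.9.

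The members and the 54 gene lists were chosen with earlier results of these data known. The genes named are every factor of the first 2 lists and the sex-linked list, in other lists up to 4 called genes with the largest rise, 4 with the largest fall and 3 uncalled genes with the highest level, and outside the lists the 15 largest rises and falls among called probes whose groups do not overlap. Tdrd1, Sycp3 and Fkbp6 fall outside that rule, and some genes that it names are not reported here. Since there is 1 array per line, p-values measure the spread between lines, pooled over the groups of the fit, and the number of arrays limits precision. Each vector-free line was derived from an iHAC2-iPS clone that is also in the fit, and the fit treated them as independent. Alternatives changed the background correction, the normalization, the filter on dim probes, the arrays in the fit, slide as a term, the probes per gene and each array in turn.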

Additional observations from a re-analysis of the deposited data

Results flagged for a closer look

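In 6 of 190 genes named and 2 of 54 lists, 1 of the 4 clones lay apart from the other 3 by Dixon's test of the gap over the range, where chance alone flags about 1 group in 20. For genes, Klf4 was at 2.97 in 1-D6 against 2.14 to 2.21 in the other clones, Nr0b1 at -1.30 in 1-A3 against 2.35 to 2.62, and Col3a1 at 2.34 in 1-C3 against 3.80 to 4.10. Gpx2 was at -1.79 in 1-C3 against -3.02 to -2.83, Cdkn1a at 3.01 in 1-C3 against 3.23 to 3.27, and Uhrf1 at 4.49 in 1-B against 4.10 to 4.14. Among lists, the median of the mesenchymal transcription factors relative to the ES mean was 0.96 in 1-D6 against 0.31 to 0.41 in the other clones, and that of p53 and its targets was 0.17 in 1-B against -0.10 to -0.07. The array of 1-D6 lay on another slide than the other 3 clones, and the part of the slide in its values was not tested.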

How the results depend on the processing

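The number of probes called, 4494, became 2366 with normexp background correction, 2441 with slide as a fixed term and 1867 without B6ES, and lay between 1867 and 4718 when each array was left out. It was 3032 to 4811 under the other alternatives over probes, among them slide as a random block (4811), which was chosen after seeing the data. Core pluripotency factors called lower (13) were 8 to 14 when each array was left out, with 8 without B6ES. Epithelial genes called lower (30) were 15 with the strict filter, which keeps fewer genes, and 17 with the 6 arrays alone in the fit. They were 14 to 32 with each array left out, 14 being without B6ES. Germline genes called lower (27) were 13 with normexp, 4 with the strict filter, which keeps fewer genes, and 16 to 28 with each array left out, 16 being without B6ES. Fibroblast markers called higher (13) were 2 with slide as a term, 6 with the 6 arrays alone and 2 to 16 with each array left out, being 2 without B6ES and 6 without 1-A3 or 1-D6. Neural genes called higher (13) were 8 with normexp, 4 with slide as a term, 5 with the 6 arrays alone and 4 to 11 with each array left out, being 4 without B6ES, 6 without TT2 and 8 without 1-D6. Except where stated, the cause was not tested. Of 161 named genes called, 80 lost the call without B6ES, 58 with slide as a term and 42 without TT2, and none under the random block or the deposited value table. The fitted correlation between arrays of a slide was -0.119 under the random block, so that fit is no check on the slide. The deposited table matched the values used, as given above, so it is no separate check either. No called gene changed sign. Uncalled genes near 0 did: Alpl went from -0.037 to 0.043 with quantile normalization, 0.24 with slide as a term and -0.17 to 0.083 with arrays left out, and Ddx3y from -0.02 to 0.54 with slide as a term and -0.21 to 0.20 with arrays left out. With arrays left out Fgf8 ranged from -2.92 to 1.09, Gdf3 from -0.52 to 0.079, Id1 from -0.29 to 0.19, Lgals1 from -0.026 to 0.62, S100a4 from -0.38 to 0.84 and Snai2 from -0.062 to 1.45. Medians kept their sign in 19 of the 20 lists of at least 0.5 in size, and the blood list went from -0.52 to 0.03 with normexp. No paired analysis was possible because the labels give the clones and the ES lines no shared numbers. Signal over background limits the germline differences, since 21 of 42 genes were well above background in no clone. With probes below background set at their bound, that median went from -3.16 to -2.42. In the epithelial list 1 of 35 genes was well above background in no clone, and the median went from -3.66 to -3.57.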
